A study of Mus musculus with 32 samples.

Results

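The named ribosomal protein pseudogenes are the rows of the count table whose symbol joins the name of a ribosomal protein gene (Rpl, Rps or Rplp with a number) to the ending -ps, usually followed by a number. By this rule on symbols alone, 236 of 41687 rows were members. They carried the names of 56 parent genes, the ribosomal protein genes from which each member takes its symbol, and Rpl48-ps1 was the 1 member whose parent had no row. Lung RNA came from 12 adult mice aged 8 to 18 weeks and labelled female, 6 C57b/6 wild types (WT) and 6 Bmal1 knock-outs (KO). The Bmal1 protein drives transcription in the circadian clock, and the table lists its gene as Arntl; the knock-out allele is not given in the sources used here. Each mouse gave a RiboZero library, for which ribosomal RNA was pulled down and removed, and a PolyA library, for which polyadenylated RNA was selected, both from 200 ng of RNA. The mice numbered 3 to 6 of each genotype also gave a NoSelect library, made with neither step from 15 ng of RNA in 6 preparations that were then combined. This made 32 libraries in 6 groups, with n = 6 per genotype for RiboZero and PolyA and n = 4 per genotype for NoSelect.

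Ribosomal proteins are the protein part of the ribosome, Rps genes those of the small subunit and Rpl and Rplp genes those of the large subunit. Their messenger RNAs are short, abundant in nearly every cell type and polyadenylated. Such messengers are copied back into the genome often over evolution, which leaves processed pseudogenes: copies without introns, at sites unrelated to the parent, most of them with no promoter of their own. A read from the parent messenger can match such a copy wherever the sequences are the same, so a count on a pseudogene row need not come from RNA made at the pseudogene. Salmon, the quantifier of this table, shares out such reads by estimation, and with identical sequences the reads of the copies cannot be told apart.

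Sequence and position were read from the GENCODE M21 annotation of the mouse build GRCm38. Of the 236 members, 224 were annotated as processed pseudogenes, 6 as transcribed processed pseudogenes and 6 as protein-coding, and 231 had a single exon. Their median length was 438 bases (151 to 1214), and their aligned part was 96.7% identical to the parent transcript in the median (73.6% to 100%, 235 members with an alignment). The median member shared 40.6% of its words of 31 bases with its parent. At least 85% of the words were shared in 33 members, and 13 members shared none. In 34 members every word was also found in some other gene. The largest families were those of Rps12 with 22 members, Rpl31 with 21, Rps19 with 14 and Rpl21 with 13. There were 35 members on the X chromosome, and 18 members lay inside an intron of a protein-coding gene on the same strand.

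The sequences below show the pairs on which the results turn. Rps12-ps3, at chr19:59322371-59322520 on the plus strand, is identical to its parent Rps12, a small-subunit protein gene whose matching exons span chr10:23785986-23787007 on the minus strand. The first 150 coding bases are shown, with no capitals because no base differs.
Rps12-ps3: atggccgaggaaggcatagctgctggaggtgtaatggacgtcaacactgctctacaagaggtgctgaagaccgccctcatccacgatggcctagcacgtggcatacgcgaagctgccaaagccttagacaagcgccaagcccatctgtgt
Rps12: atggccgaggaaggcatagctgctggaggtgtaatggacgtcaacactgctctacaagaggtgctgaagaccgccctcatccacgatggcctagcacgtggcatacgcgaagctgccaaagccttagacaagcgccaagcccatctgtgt
Rps13-ps1 differed from Rps13 by only 2 substitutions over the 453 coding bases of the parent, and Rps13-ps2 by none. Both substitutions fall in the following 30 bases and are in capitals (T7C and A25G, parent base first, positions counted from 1 at the 5′ end of the stretch). The stretch lies at chr8:87048124-87048153 (plus strand) in Rps13-ps1, at chr7:116331572-116332396 (minus strand, across exons) in Rps13 and at chr7:88530465-88530494 (minus strand) in Rps13-ps2.
Rps13-ps1: cccaccCaattggaaatatgagtcGtccac
Rps13: cccaccTaattggaaatatgagtcAtccac
Rps13-ps2: cccaccTaattggaaatatgagtcAtccac
Rps15a-ps8 is a more diverged copy, with 30 substitutions in 387 aligned coding bases of Rps15a. Its first 300 bases, at chr4:53791157-53791456 (minus strand), are set against the parent at chr7:118109193-118115241 (minus strand), with the 23 differing bases in capitals.
Rps15a-ps8: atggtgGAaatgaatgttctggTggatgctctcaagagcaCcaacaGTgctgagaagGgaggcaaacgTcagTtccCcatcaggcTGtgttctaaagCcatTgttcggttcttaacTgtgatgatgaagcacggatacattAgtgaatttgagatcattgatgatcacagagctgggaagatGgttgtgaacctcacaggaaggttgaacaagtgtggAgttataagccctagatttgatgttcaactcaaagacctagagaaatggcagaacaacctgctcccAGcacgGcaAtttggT
Rps15a: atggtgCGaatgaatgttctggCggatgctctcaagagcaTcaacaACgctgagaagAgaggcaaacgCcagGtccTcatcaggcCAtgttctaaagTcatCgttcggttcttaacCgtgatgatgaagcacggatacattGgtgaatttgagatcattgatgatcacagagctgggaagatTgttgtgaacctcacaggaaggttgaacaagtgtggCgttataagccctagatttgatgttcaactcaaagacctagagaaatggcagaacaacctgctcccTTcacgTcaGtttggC

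Total counts ran from 11638594 to 25801237 per RiboZero library, from 29924325 to 41548830 per PolyA library and from 74979802 to 115059756 per NoSelect library. Only 22009262 to 37100656 of the NoSelect counts lay outside Lars2 and a Gm42418 transcript, so levels are given as CPM, estimated counts per 1000000 of a library's effective total after TMM scaling over all 32 libraries. Lung markers summed to between 16299 and 51089 CPM in every library and liver markers to at most 22 CPM. The library NoSelect KO 6, whose label reads liver, had 24073 CPM of lung markers and 19 CPM of liver markers. That liver sum was the highest with NoSelect (7.8 to 19 CPM), and 13.3 CPM of it lay on Apob. KO mouse 6 had 104 to 190 CPM over 4 Y-linked genes and at most 0.391 CPM of Xist, against its label of female; the other 11 mice had at least 250 CPM of Xist. Arntl, the targeted gene, kept counts in KO: its levels were 27 to 33.9 CPM in WT and 15.2 to 18.7 CPM in KO with RiboZero, 27.5 to 29.4 and 16.6 to 18.7 CPM with NoSelect, and 19.6 to 23.6 and 17 to 20.9 CPM with PolyA, where the groups overlapped. In whole lung RNA, fewer cells of a type and less RNA per cell cannot be told apart.

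Most members were close to silent. In every library 48 of the 236 stayed at 0, and 127, those 48 included, never passed 3 counts. A library detected 53 to 79 members with at least 1 count with RiboZero, 90 to 105 with PolyA and 57 to 80 with NoSelect, and at least 10 counts were reached by 10 to 16, 22 to 40 and 11 to 17 members. Only 10 members passed 100 counts in any library, and 12 reached a mean of at least 1 CPM in some preparation. The 9 highest members held 97.6% of all member counts with RiboZero, 98.4% with PolyA and 97.3% with NoSelect. Summed over all members, the level was 552 CPM ± 41.1 (SD, n = 12) with RiboZero, 820 ± 62.3 (n = 12) with PolyA and 467 ± 45.7 (n = 8) with NoSelect. Members took 8.97% ± 0.485 (range 8.29 to 9.81), 7.59% ± 0.543 (6.89 to 8.45) and 9.34% ± 0.814 (8.04 to 10.06) of the counts of members and parents together. By genotype this share was 8.29% to 8.86% in WT and 8.73% to 9.81% in KO with RiboZero, 6.89% to 8.36% and 6.97% to 8.45% with PolyA, and 8.04% to 9.58% and 9.84% to 10.06% with NoSelect. The WT and KO libraries overlapped with RiboZero and PolyA and not with NoSelect, and this share was not tested. With NoSelect, the row of Rps13-ps1 alone held 1535 to 2720 counts in KO, 1287 in WT mouse 3 and 0 in the other WT libraries. The gap in the share therefore cannot be read as a shift across the members. In families whose parent row had counts in the library, the shares were 6.24%, 7.59% and 6.84%, with PolyA the highest. This left the Rps12 family out of every RiboZero and NoSelect library, where its parent was at 0, and kept it with PolyA. These 3 shares thus cover unlike sets of families, and their order cannot be compared.

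These counts sat in few families. Members held over 50% of the family's counts in 4 of 56 families with RiboZero, 5 with PolyA and 4 with NoSelect, and under 1% in all 3 preparations in 42 families. The 9 highest members were near copies of their parents. Rps12-ps3, Rps23-ps1, Rpl27-ps3, Rps16-ps2, Rpl28-ps1, Rps13-ps2 and Rpl10a-ps1 shared 100% of their words with the parent, Rpl10-ps3 shared 96.2% and Rps13-ps1 87.2%. Levels of different genes are compared per kilobase (kb) of transcript below.

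**Figure D1:**
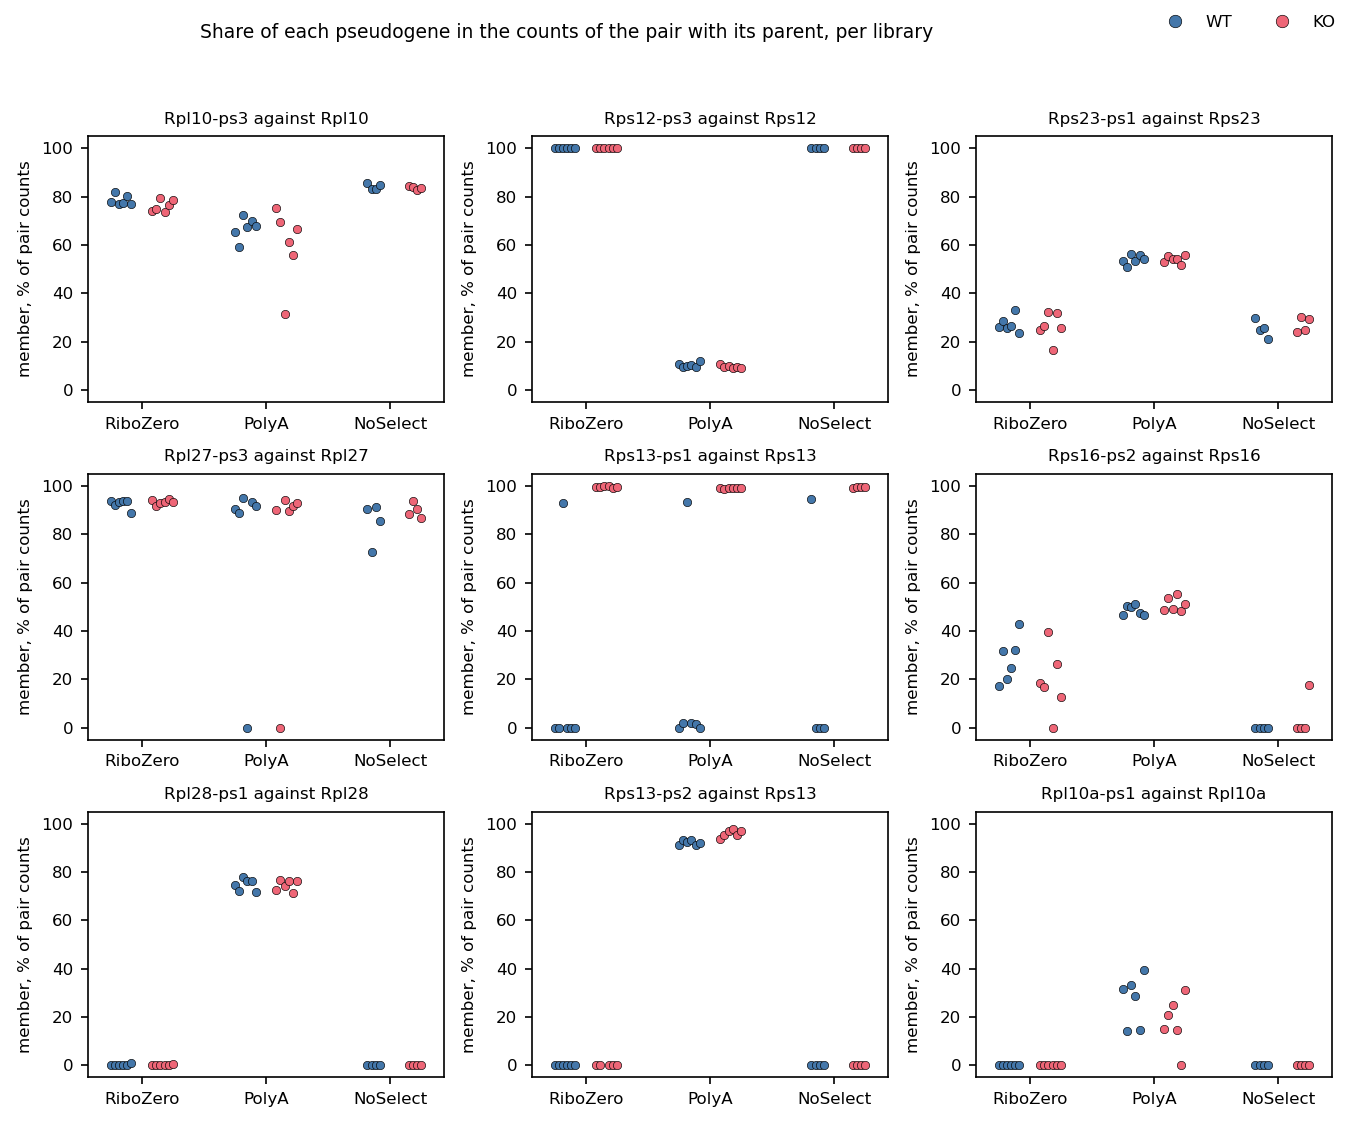
Counts of each of the 9 highest pseudogenes as a percent of the counts of that pseudogene and its parent, with 1 point per library, by preparation (x axis) and genotype (WT blue, KO red). Rps12-ps3 was at 100% in every RiboZero and NoSelect library and near 10% with PolyA, Rpl28-ps1 and Rps13-ps2 were at or near 0 outside PolyA, and Rps13-ps1 separated the mice.

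Rpl10-ps3 was the highest member. It took more counts than its parent Rpl10, a large-subunit protein gene on the X chromosome, in all but 1 of the 32 libraries. Its levels (lowest, median, highest) were 204, 220 and 241 CPM with RiboZero, 167, 330 and 368 with PolyA and 199, 209 and 226 with NoSelect. Rpl10 gave 49.1, 64.5 and 79.3, then 120, 166 and 361, then 36.3, 40.3 and 44.1 CPM. RiboZero and NoSelect libraries of the pseudogene overlapped, and PolyA libraries lay above them except KO mouse 3, where 9310 estimated counts fell to Rpl10-ps3 and 20168 to Rpl10. Per kb, the pseudogene's mean was 287, 415 and 273 CPM against 75.8, 216 and 46.8 for Rpl10. Rpl10-ps3 is annotated as protein-coding. Its share of the pair was 77.3% ± 2.41 (SD, n = 12), 63.5% ± 11.5 (n = 12) and 84.0% ± 1.06 (n = 8).

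Rps12 and Rps12-ps3 changed places between preparations. All 12 RiboZero and all 8 NoSelect libraries had 0 counts on Rps12, while the 12 PolyA libraries had 276, 297 and 331 CPM (lowest, median, highest). Rps12-ps3 had 156, 174 and 188 CPM with RiboZero, 29.4, 31.9 and 40.8 with PolyA and 127, 132 and 144 with NoSelect. No PolyA library overlapped with a library of another preparation for either row. The share of Rps12-ps3 in the pair was 100% in every RiboZero and NoSelect library and 9.94% ± 0.867 (SD, n = 12) with PolyA. Against the floor of 3 counts per library, the row of Rps12 was at least 2368-fold higher with PolyA than with RiboZero. Against NoSelect it was at least 2986-fold higher. Rps12-ps3 was lower with PolyA by 2.39 (SE 0.051) and 1.98 (SE 0.0608) on the log2 scale. All words of Rps12-ps3 are in Rps12, so these folds describe rows of estimated counts and a 0 need not mean absent RNA. The printed stretches of the pair are the same letter for letter, and the 22 members of the Rps12 family with their parent summed to 174 ± 8.84 CPM (SD, n = 12) with RiboZero, 331 ± 17.2 with PolyA and 134 ± 5.84 (n = 8) with NoSelect. The direction for Rps12-ps3 between PolyA and NoSelect depended on the scaling, because in CPM of the unscaled total it averaged 52.4 with PolyA and 47 with NoSelect.

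Rpl28-ps1, Rps13-ps2 and Rpl10a-ps1 had counts almost only with PolyA. Rpl28-ps1, a copy of the large-subunit gene Rpl28, had 53.4, 60.9 and 72.2 CPM (lowest, median, highest) with PolyA, 0 in all 8 NoSelect libraries and 0 in 10 of 12 RiboZero libraries, the other 2 holding 4 and 3 counts. Its parent Rpl28 had medians of 19.8, 20.1 and 24.4 CPM in RiboZero, PolyA and NoSelect and overlapping ranges. The pseudogene thus took 74.8% ± 2.22 (SD, n = 12) of the pair with PolyA and none with NoSelect. The row of Rpl28-ps1 was at least 617-fold higher with PolyA than with NoSelect, and the parent differed by -0.20 (SE 0.0754) on the log2 scale. All words of Rpl28-ps1 are in Rpl28, so the split of reads is an estimate and a 0 need not mean absent RNA. Rpl28 and its 3 members summed to means of 20.2 CPM with RiboZero, 82.1 with PolyA and 24.5 with NoSelect.

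Rps13-ps2 had 17.7, 38.0 and 51.0 CPM with PolyA and 0 in the other 20 libraries, at least 365-fold below PolyA with NoSelect and at least 289-fold with RiboZero. Rpl10a-ps1 had 0 in the same 20 libraries and 12.4 CPM in the median PolyA library (0 to 30.5), with KO mouse 5 at 0. Its bounds were 128-fold and 101-fold, and its parent Rpl10a had 21.5, 37.9 and 17.6 CPM in the median RiboZero, PolyA and NoSelect library. For all 3 pseudogenes the PolyA libraries lay apart from the rest, with the exception of that 1 library. Rps13-ps2 and Rpl10a-ps1 also share all words with the parent, so their bounds describe rows of estimated counts. Family means in RiboZero, PolyA and NoSelect were 36.4, 103 and 37.6 CPM for Rps13 and 21.5, 53 and 17.9 CPM for Rpl10a. Those of Rps13 pool unlike genotypes, with means of 7.78, 58.8 and 10.9 CPM in WT and 65, 148 and 64.4 CPM in KO.

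Rps23-ps1 and Rps16-ps2 took about equal parts with the parent with PolyA and smaller parts with RiboZero and NoSelect. Rps23-ps1 had 24.2, 42.9 and 53.7 CPM with RiboZero, 132, 140 and 164 with PolyA and 25.1, 29.0 and 37.0 with NoSelect, so that PolyA stood clear of the others. Rps23, which encodes a protein near the decoding centre of the small subunit, had medians of 120, 117 and 85.8 CPM. The share of Rps23-ps1 in the pair rose from 26.7% ± 4.43 (SD, n = 12) and 26.1% ± 3.29 (n = 8) with RiboZero and NoSelect to 54.0% ± 1.68 (n = 12) with PolyA. The fitted difference of PolyA from NoSelect was 2.24 (SE 0.0689, adjusted p = 4.80e-17 by edgeR) for the pseudogene and 0.52 (SE 0.0488) for Rps23.

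Rps16-ps2 had 86.7, 90.4 and 105 CPM with PolyA and 0, 9.47 and 20.3 with RiboZero. With NoSelect it was at 0 in 7 of 8 libraries and at 24 CPM (983 counts) in KO mouse 6. Rps16, its small-subunit parent, showed the opposite order between RiboZero and NoSelect, with medians of 30.9 CPM with RiboZero, 91.6 with PolyA and 106 with NoSelect. Rps16-ps2 was higher with PolyA by 5.18 (SE 0.859, adjusted p = 1.39e-05 by edgeR) against NoSelect, a call for which DESeq2 gave no adjusted p, and by 3.17 (SE 0.306) against RiboZero. Rps16 differed by -0.16 (SE 0.0558) and 1.58 (SE 0.0893). The share of the pseudogene in the pair was 49.9% ± 2.67 (SD, n = 12) with PolyA, 23.6% ± 11.9 with RiboZero and 2.19% ± 6.2 (n = 8) with NoSelect.

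Rpl27-ps3 outweighed its parent Rpl27, a large-subunit gene, in every library but 2. It had 43.9, 57.1 and 69.2 CPM with RiboZero, 0, 49.9 and 86.6 with PolyA and 18.1, 48.0 and 54.9 with NoSelect, against parent medians of 4.11, 4.72 and 5.26 CPM. The 2 PolyA libraries at 0 were WT mouse 4 and KO mouse 2, and the ranges of the 3 preparations overlapped. No comparison of preparations called Rpl27-ps3 or Rpl27, with differences of 0.23 (SE 0.619) and -0.13 (SE 0.114) between PolyA and NoSelect. Per kb the means were 139, 116 and 102 CPM for the pseudogene and 5.72, 6.42 and 7.26 for the parent.

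Preparations were compared with edgeR's quasi-likelihood test over all rows, with Benjamini-Hochberg adjustment over all rows. A row was called at an adjusted p under 0.05 and a log2 fold change of at least 1 in size. Rows entered a test only with enough counts in some group, so the counts and medians below describe the tested members and not all 236. A low row could enter through the preparation in which it was high, which by itself leans its fold change to that preparation. The counts of calls and the medians therefore do not measure the direction of the members as a set. Between PolyA and NoSelect, 21 of 37 tested members were called higher with PolyA, where 10.0% of all rows were, and 3 lower, where 15.1% were. The median difference of tested members was 1.33, against 0.10 over all rows. Of their parents, 39 of 55 were called higher and 0 lower, with a median of 1.12. All ribosomal protein genes gave 64 of 87 higher, 0 lower and 1.14. Other named pseudogenes gave 16 higher and 16 lower of 56 (median 0.53). A list of 16 other genes was also read, such as Eef1a1 and Tpt1, whose messengers begin with a run of pyrimidines. Of these, 4 were higher and 0 lower (median 0.74). Scaling to the total count instead moved the median of all rows by 2.17 between these preparations and turned the direction of 1 of the 24 called members, Rps12-ps3.

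Below the highest members, the PolyA calls were of low rows. Outside the members described above, the rows called higher with PolyA than with NoSelect ran from 1.13 in Rps6-ps3 to 3.12 in Rpl21-ps8 on the log2 scale, at means between 0.142 CPM (Rpl13-ps3) and 1.85 CPM (Rps15a-ps8) with PolyA. Rps26-ps1, annotated as transcribed, had 0.438 CPM with PolyA and 0.0925 with NoSelect, a difference of 2.27 (SE 0.31). Rps19-ps1 and Rps19-ps2 had the same values throughout, 0.202 and 0.0668 CPM, and count as uncertain because their sequences are the same. With the mouse as a block the calls of Rps15a-ps7 (1.32, adjusted p = 0.0835 by edgeR) and Rps6-ps3 (0.99, below the size threshold) were lost. Rps15a-ps7 was also lost without WT mouse 3, 4 or 5 or KO mouse 2, and Rps6-ps3 without WT mouse 2, 3 or 4. Rps15a-ps8 (2.13, adjusted p = 0.0281 by edgeR) was lost without KO mouse 3, 4, 5 or 6 (adjusted p = 0.0619 to 0.0696), and DESeq2 gave it no adjusted p.

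Between PolyA and RiboZero, 10 of 28 tested members were called higher with PolyA (7.00% of all rows) and 7 lower (16.6% of all rows), with a median of 0.69 against 0.07 over all rows. Of the parents 9 of 55 were higher and 0 lower, with a median of 0.79, and of other named pseudogenes 10 of 59 were higher and 20 lower (median 0.05). Between RiboZero and NoSelect, edgeR called 0 of 16 tested members higher (1.74% of all rows) and 0 lower (2.56% of all rows), while 4 had an unadjusted p under 0.05 and DESeq2 called 0. With the mouse as a block 2 of 23 tested members were called, Rps16-ps2 at 4.61 and Rpl13-ps1 at -1.18. Leaving out KO mouse 6 also gave 2, Rps16-ps2 at 11.23 and Rps12-ps9, and leaving out KO mouse 4 or WT mouse 6 gave 1. Of the parents, Rps16 was the 1 called, lower with RiboZero by 1.78 (SE 0.103).

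**Figure D2:**
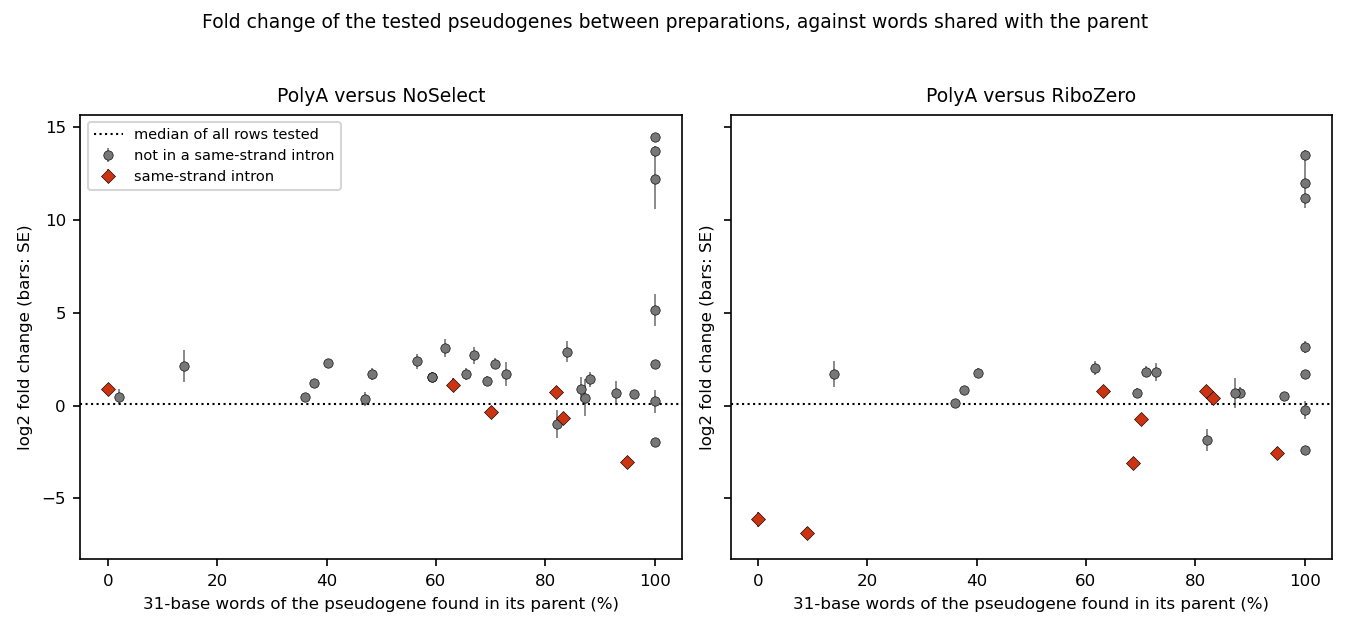
Fitted log2 fold change of the tested pseudogenes, all but 1 in each panel (y axis, bars are standard errors) against the percent of its words of 31 bases found in the parent (x axis), for PolyA against NoSelect and PolyA against RiboZero. Red diamonds are members inside a same-strand intron, the dotted line is the median of all tested rows, and folds of members at 0 in a group depend on the prior count; 4 red points lie between -2.55 and -6.86 in the panel of PolyA against RiboZero, all called lower with PolyA.

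Among the tested members, those called lower with PolyA were mostly inside introns. Against RiboZero, 5 of 9 tested members in a same-strand intron were called lower and 0 higher, with a median of -2.55, and of the 19 others 10 were higher and 2 lower, with a median of 1.72. Against NoSelect, 1 of 7 intronic members was higher and 2 lower (median -0.32), and of the 30 others 20 were higher and 1 lower (median 1.62). These splits are a description and were not tested. They also depend on which preparation let a row into the test. Rpl23a-ps2 and Rpl36a-ps4, each with 1 count over all PolyA libraries, could enter only through RiboZero. Neither these nor Rps15a-ps6 entered the test against NoSelect. Among the intronic members lower than with RiboZero were Rpl10-ps6, Rpl23a-ps2, Rpl36a-ps4 and Rps15a-ps6. Of the 2 lower members outside such introns, Rps12-ps3 is described above and Rps2-ps10 had 0, 20.7 and 47.9 counts (lowest, median, highest) with RiboZero and 0, 15.4 and 35.1 with PolyA, a difference of -1.84 (SE 0.612).

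Rpl10-ps6, in an intron of Ide, the insulin-degrading enzyme gene, had 6.16, 21.8 and 40.3 counts with RiboZero, 20.5, 36.0 and 72.0 with NoSelect and 1.83, 6.95 and 27.8 with PolyA. These counts overlapped, but in CPM the PolyA libraries reached 0.498 at most while NoSelect began at 0.737 and RiboZero at 0.438. The differences were -3.06 (SE 0.319) from NoSelect and -2.55 (SE 0.301) from RiboZero, and those of Ide were -0.33 and -0.37. Rpl10-ps6 shares 94.9% of its words with Rpl10 and differs from it by 1 substitution, and the parent was higher with PolyA by 2.24 (SE 0.161) against NoSelect.

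The other 3 were lower still in number of counts. Rpl23a-ps2, in an intron of Rabep1, had 5.78, 14.4 and 20.4 counts with RiboZero and 1 count over all 12 PolyA libraries against 160 over RiboZero, a ratio of 356 with a 95% counting interval of 63 to 14142. Rpl36a-ps4, in an intron of the kinase gene Map3k20, had 1 count against 97, a ratio of 216 (37.8 to 8608). Rps15a-ps6, in an intron of Nudcd3, had 6.25, 13 and 18.6 counts with RiboZero and 0, 3.41 and 10.5 with PolyA, a difference of -3.10 (SE 0.271). The hosts differed by -0.92 for Rabep1, -1.57 for Map3k20 and -0.08 for Nudcd3. Each of these hosts differed less than the pseudogene in its intron, but the pseudogenes were picked because they were called lower with PolyA. The comparison with hosts is therefore not a result about intronic members. Of the 9 tested, 5 were called lower. Among those not called, Rps6-ps3 differed by 0.79 (SE 0.226) and its host Rab39 by -0.8.

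**Figure D3:**
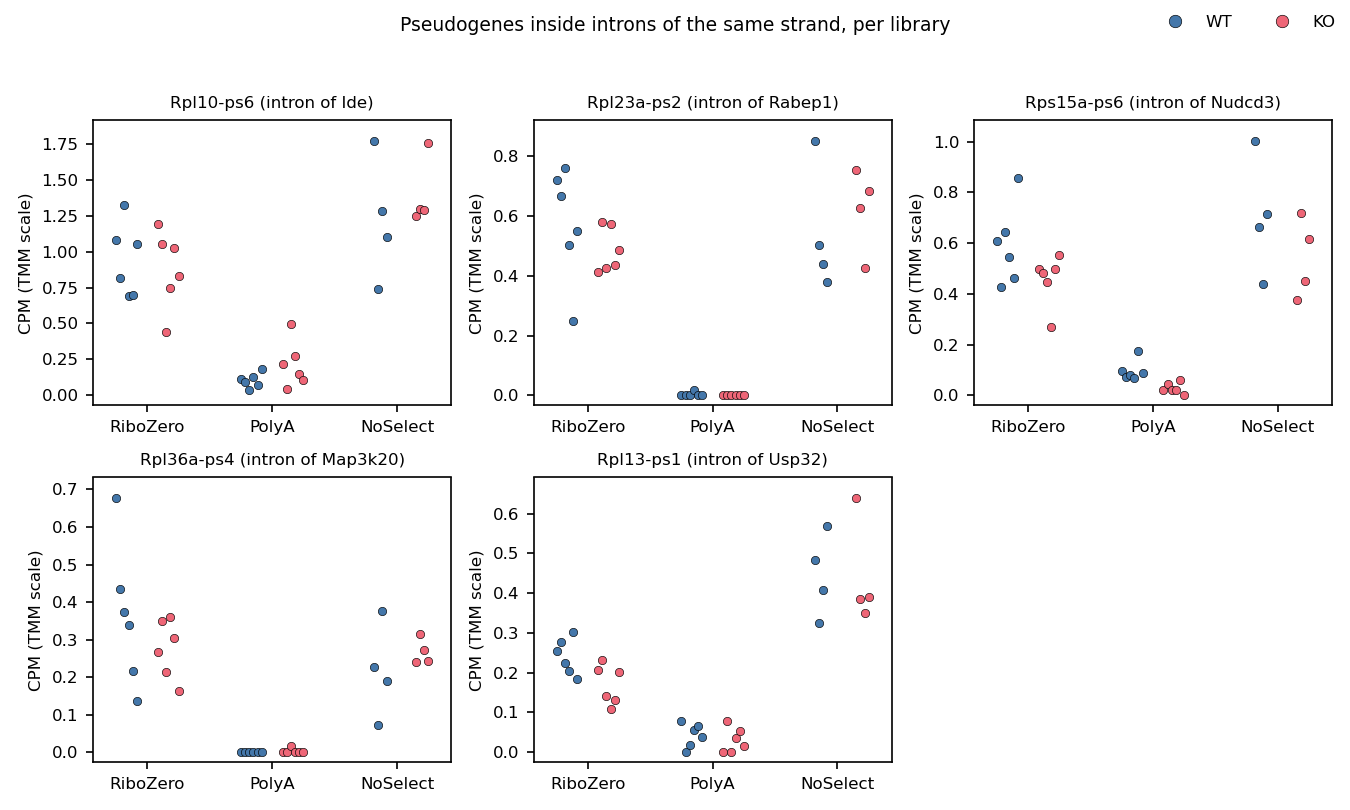
Levels in CPM on the TMM scale (y axis) of 5 pseudogenes inside same-strand introns, 1 point per library, by preparation and genotype (WT blue, KO red), each with its own scale. For Rpl23a-ps2 and Rpl36a-ps4 all PolyA libraries lie at or near 0, below every RiboZero and NoSelect library. The 5 shown all had their lowest mean with PolyA, which did not hold for every intronic member.

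Genotypes were compared separately in each preparation by edgeR's quasi-likelihood test, with a call at an adjusted p under 0.05. Few members were called. With RiboZero, 1 of 13 tested members was higher in KO and 0 lower, where 3.46% of all rows were called, and the tested members' median was -0.06 against 0.00 over all rows. With PolyA, 0 of 25 were higher and 1 lower (4.03% of all rows), with a median of -0.09. With NoSelect edgeR called 0 of 14 (2.17% of all rows), 1 had an unadjusted p under 0.05 and DESeq2 called 0; the median was 0.02. The parents gave 1 lower of 54 with RiboZero, 1 lower of 55 with PolyA, Rps13 in both cases, and 0 of 54 with NoSelect, where 3 had an unadjusted p under 0.05. Of the 16 listed genes whose messengers begin with a run of pyrimidines, Eif3f was higher with RiboZero (0.20, adjusted p = 0.0233 by edgeR). Hnrnpa1 was lower with PolyA (-0.15, adjusted p = 0.0321 by edgeR).

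The levels of KO libraries lay entirely above or below those of WT in 2 of 13 tested members with RiboZero (2.90% of all rows), 3 of 25 with PolyA (3.32% of all rows) and 2 of 14 with NoSelect (9.48% of all rows). Rps13-ps1 and Rps15a-ps8 made up the first and last pairs, and with PolyA Rps13-ps2 joined them. For both Rps13-ps1 and Rps15a-ps8, WT mouse 3 lay apart from the other WT mice in all of its 3 libraries, at a level between them and the KO mice.

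The row of Rps13-ps1 was high in every KO mouse and in 1 WT mouse. It shares 87.2% of its words with Rps13, so its counts are estimates, and which gene the reads came from was not tested. With RiboZero the KO libraries had 53.6, 65.2 and 73.7 CPM (lowest, median, highest), WT mouse 3 had 35.8, and the other 5 WT libraries had 0 counts. With PolyA the KO libraries had 111, 119 and 128 CPM, WT mouse 3 had 49.3, and the other 5 had at most 0.0769. With NoSelect the 4 KO libraries had 59.6 to 66.5 CPM, WT mouse 3 had 36.5 and the other 3 had 0 counts. In estimated counts this was 897 to 2493, 5655 to 7279 and 1535 to 2720 in KO, and 959, 2708 and 1287 in WT mouse 3. The same mice were high and low in all 3 preparations.

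The test over all WT mice called Rps13-ps1 in no preparation, with KO higher by 3.40 (SE 1.1, adjusted p = 0.126 by edgeR) with RiboZero, 3.82 (SE 1.35, adjusted p = 0.15) with PolyA and 2.77 (SE 1.33, adjusted p = 0.366) with NoSelect. Without WT mouse 3 all 3 were called, at 13.64 (adjusted p = 6.72e-08 by edgeR), 11.44 (2.35e-10) and 13.92 (5.93e-06), values that depend on the prior count because the other WT libraries were at or near 0. The call thus depended on WT mouse 3.

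Its parent ran the other way at far lower levels. Rps13 had 0.967 to 2.72 CPM in WT and 0 to 0.486 in KO with RiboZero, 3.15 to 4.48 and 0.707 to 1.32 with PolyA, and 0.174 to 2.23 and 0.119 to 0.655 with NoSelect. The groups did not overlap with RiboZero and PolyA and did with NoSelect. Rps13 was lower in KO by 2.58 (SE 0.454, adjusted p = 0.0074 by edgeR) with RiboZero, at a KO mean of 0.233 CPM. That call was lost with the replicate number as a block (adjusted p = 0.0502 by edgeR), though these numbers do not pair mice. With PolyA Rps13 was lower by 1.93 (SE 0.158, adjusted p = 1.96e-05 by edgeR). With NoSelect it differed by -2.07 (adjusted p = 0.2 by edgeR). When the counts of its pseudogenes were added to the parent row, the direction turned to 3.04 (adjusted p = 0.0559), 1.30 (adjusted p = 0.000563) and 2.53 (adjusted p = 0.261).

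Rps13-ps2, which carries the parent's bases at both printed positions where Rps13-ps1 differs, was called lower in KO with PolyA, the only preparation in which it had counts. The WT libraries had 42.9, 45.8 and 51.0 CPM (lowest, median, highest) and the KO libraries 17.7, 26.5 and 33.2, without overlap. The difference was -0.83 (SE 0.124, adjusted p = 0.00265 by edgeR). In KO libraries the member that matches the parent was thus lower while Rps13-ps1 was higher.

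Rps15a-ps8 followed the same mice with far fewer counts. With RiboZero the KO libraries had 14.6, 22.7 and 39.5 counts, WT mouse 3 had 13.1 and the other 5 WT libraries 0. With PolyA the KO libraries had 167, 184 and 222 counts, WT mouse 3 had 90.1, and of the others WT mouse 2 had 1 and the rest 0. With NoSelect the KO libraries had 16.8 to 29.0 counts, WT mouse 3 had 11.3 and the other 3 had 0. In CPM the KO means were 1.02 ± 0.177 (SD, n = 6), 3.43 ± 0.344 (n = 6) and 0.706 ± 0.0576 (n = 4).

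Rps15a-ps8 was higher in KO by 3.50 (SE 0.753, adjusted p = 0.0221 by edgeR) with RiboZero, which was called, and by 3.59 (SE 1.04, adjusted p = 0.081) with PolyA and 3.0 (SE 0.85, adjusted p = 0.13) with NoSelect, which were not. The RiboZero call was lost without WT mouse 4 (adjusted p = 0.0504) or WT mouse 5 (adjusted p = 0.0551). Without WT mouse 3 all 3 preparations were called, at 7.67, 9.16 and 7.43. Rps15a itself was not called, with medians of 87.1 CPM in WT and 83.6 in KO with RiboZero, 162 and 170 with PolyA and 73.8 and 69.7 with NoSelect, and differences of 0.00, 0.02 and -0.11. Both pseudogenes lie away from the targeted gene, Rps13-ps1 on chromosome 8 and Rps15a-ps8 on chromosome 4. Their parents lie on chromosome 7, where Rps13 is 3.02 and Rps15a 4.79 megabases from Arntl (chr7:113207465-113314126). What sets WT mouse 3 apart from the other WT mice was not tested.

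**Figure D4:**
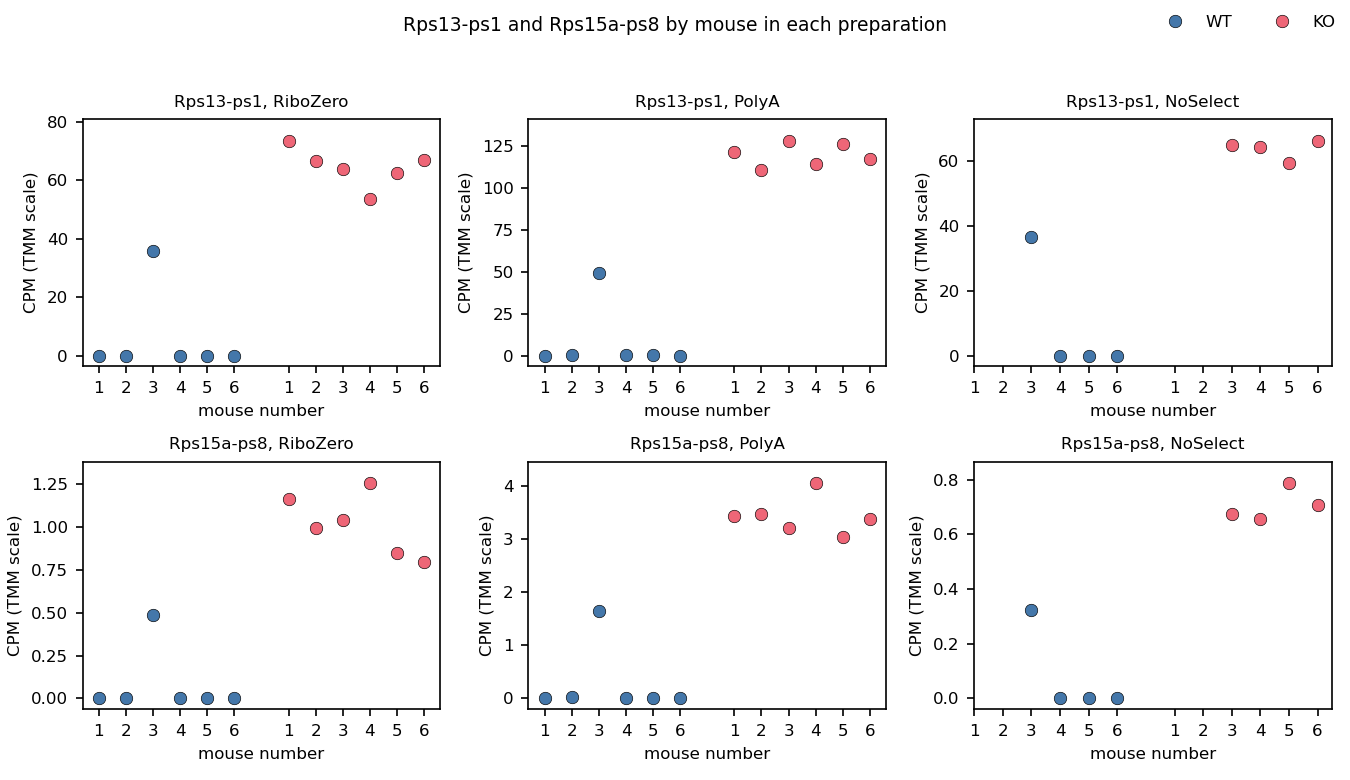
Levels of Rps13-ps1 (top) and Rps15a-ps8 (bottom) in CPM on the TMM scale (y axis) for each mouse (x axis, WT 1 to 6 in blue, then KO 1 to 6 in red), with a panel for each preparation and its own scale; mice 1 and 2 have no NoSelect library. All KO mice are high, WT mouse 3 lies between, and the other WT mice are at or near 0.

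The difference of the KO effect between preparations was tested as an interaction. edgeR called 0 of 37 tested members between PolyA and NoSelect (0% of all rows), 0 of 16 between RiboZero and NoSelect (0% of all rows) and 0 of 28 between PolyA and RiboZero (0% of all rows). At an unadjusted p under 0.05 there were 4, 1 and 3 members. DESeq2 called 0, 1 and 0, the 1 being Rps16-ps2 between RiboZero and NoSelect, the member that had counts in only 1 NoSelect library. In all, 41 of the 236 members were tested in at least 1 comparison, and the other 195 had too few counts for any test.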

How the data were processed

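Lung RNA of 6 WT and 6 KO mice was sequenced in 32 libraries. The deposited file is a table of estimated counts by gene, made with Salmon 1.4.0 on GRCm38, with UMI-tools 1.1.1 also named, per the submitters' processing notes; the index and annotation are not given in the sources used here. Of the values 12.8% were not whole, and all were rounded. The table holds 37751 gene rows and 3936 transcript rows, and 37649 rows matched a symbol.

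Rows were tested with edgeR 4.0.16 in R 4.3.3 (TMM, filterByExpr, quasi-likelihood test, Benjamini-Hochberg adjustment), KO against WT within a preparation, and preparations over both genotypes with genotype as covariate. The fits were tested on simulated data. Alternatives were DESeq2 1.42.0, median-of-ratios factors, other filters on low counts, thinning to the smallest total, replicate blocks, leaving out mice, adding members to parents, and scaling to the total count. Chi-square per degree of freedom between replicates was 6.67 to 65.9 over 72 pairs, so each library counts as 1 replicate within a preparation. The main comparisons of preparations had no term for the mouse. Libraries of 1 mouse entered them as separate replicates, so their SEs and p-values leave out the pairing.

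Libraries of 1 mouse pair across preparations because the labels number the same animals. Over 14367 rows their deviations correlated at 0.561 to 0.785 (RiboZero and PolyA), 0.555 to 0.771 and 0.572 to 0.765 (each with NoSelect), and equal numbers in WT and KO are different mice.

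Sequences and lengths came from GENCODE M21 through Biopython 1.88; a level per kb of a parent uses its longest coding transcript. The intervals and the floor of 3 counts per library cover counting error only. Named members have a mean of at least 1 CPM in some preparation or a call in some comparison, and those of the 10 highest that are reported are given in full; 1 member is not reported here. The members and lists were chosen with earlier results of these data known.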

Additional observations from a re-analysis of the deposited data

Results flagged for a closer look

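For 11 members, 55 groups of 4 or 6 libraries were searched for a library far from the rest, which was found in 12. The rule's nominal rate of about 1 in 20 groups assumes normally distributed, independent values. It does not apply to groups at 0 except for 1 library, or to the same mouse seen in several preparations. The 12 are therefore not compared with that rate. In WT mouse 3, Rps13-ps1 stood at 35.8 CPM with RiboZero, 49.3 with PolyA and 36.5 with NoSelect, with the other WT libraries at 0.0769 or below. The same mouse had Rps15a-ps8 at 0.489, 1.64 and 0.321 CPM, with the other WT libraries at 0.0209 or below. In KO mouse 6, Rps16-ps2 stood at 24 CPM with NoSelect, where the other KO libraries had 0, and Rpl27-ps3 at 25.6 CPM, below the 48.2 to 51.4 of the others. Rps23-ps1 was highest in WT mouse 5 with RiboZero, at 53.7 CPM against 39 to 44 in the other WT mice, and lowest in KO mouse 4, at 24.2 CPM against 41.9 to 50.7. Rpl28-ps1 had 0.161 CPM in WT mouse 6 and 0.13 in KO mouse 6 with RiboZero, from 4 and 3 counts, where the rest of each group had 0.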

How the results depend on the processing

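Over 62 fold changes of named rows, 1005 of 1038 alternatives kept direction and side of the threshold, 19 lost the call, 9 gained it and 5 reversed, leaving out 7 for which DESeq2 gave no adjusted p. The reversals came from adding member counts to the parent row: Rps13 in KO against WT (3.04 with RiboZero, 1.30 with PolyA, 2.53 with NoSelect), and Rpl28 (1.79) and Rps16 (0.79) in PolyA against NoSelect.

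Called members in KO against WT changed with RiboZero from 1 to 0 under at least 10 counts in every library and to between 0 and 2 when a mouse was left out. Under that filter 6 members were tested in place of 13, and 628 of 15019 rows were called. With PolyA, 1 became 2 after thinning and 1 to 3 without a mouse. With NoSelect, 0 became 0 to 2. Each highest value was without WT mouse 3, and the RiboZero 0 without WT mouse 4 or 5.

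The 24 members called between PolyA and NoSelect became 50 with no filter, 2 with at least 10 counts in every library and 9 after thinning (23 to 26 without a mouse). The 17 between PolyA and RiboZero became 48, 2 and 10 (17 to 18). The 0 between RiboZero and NoSelect became 2 with no filter and 0 to 2 without a mouse. Filters and thinning also change how many rows are tested, among members and among all rows. These changes in number are therefore not results gained or lost. DESeq2 called 1 member for the KO effect between RiboZero and NoSelect.

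With the replicate number as a block in KO against WT, calls became 0 with RiboZero and 3 with PolyA; numbers there do not pair mice (correlations -0.202 to 0.333, at most 1 mouse closest to its number). With the mouse as a block 26, 17 and 2 members were called between preparations (PolyA and NoSelect, PolyA and RiboZero, RiboZero and NoSelect).

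In families whose parent row has counts, members took 6.24% with RiboZero, 7.59% with PolyA and 6.84% with NoSelect. The Rps12 family entered there only with PolyA, so the order of the preparations compares unlike sets of families. In CPM of the unscaled total, the summed level was 694, 1307 and 165 with RiboZero, PolyA and NoSelect. Under 10 counts, depth limits what can be read from most members.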

Other observations

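The table was searched for other rows that follow the mice as Rps13-ps1 and Rps15a-ps8 do, by a rule chosen after their values were seen: every KO library at least 10-fold above every WT library other than mouse 3 and at 10 counts or more, with WT mouse 3 between, or the reverse. Of 41687 rows, 3 were higher in KO in all 3 preparations, both pseudogenes and 1 row with a transcript identifier and no symbol. That row had 21 to 85, 258 to 348 and 48 to 75 counts in KO with RiboZero, PolyA and NoSelect, 29, 134 and 39 in WT mouse 3, and 0 to 1 in the other WT mice. The reverse pattern held in 1 row, also a transcript without a symbol. It had 0 counts in every KO library, 788, 2013 and 1022 in WT mouse 3, and 1375 to 1901, 4008 to 5502 and 1774 to 2134 in the other WT mice.

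Rps13 and its 7 named pseudogenes summed to 53.8 to 74.2, 140 to 163 and 60 to 67 CPM in KO, 38.9, 96.3 and 38.7 in WT mouse 3, and 1.22 to 2.08, 47.4 to 55.6 and 0.762 to 2.6 in the other WT mice. With that last transcript row added, the sums were 68.3, 133 and 67.8 CPM in WT mouse 3 and 62.4 to 66, 123 to 146 and 63.2 to 69.9 in the other WT mice, and those of KO stayed the same. The 3 groups of mice then overlapped or lay close together in each preparation. That row was picked for the reverse pattern in these same data, so adding it had to raise the WT sums and leave KO unchanged. Whether it belongs to the Rps13 family was not tested. That transcript identifier is not in GENCODE M21, so its gene is not named and its sequence was not examined here.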
